A study of Homo sapiens with 12 samples.

Results

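Internal-exon m6A peaks of protein-coding transcripts were described in HGC27 cells, an established human gastric carcinoma line, after knockdown of FTO and in control cells. A peak belonged to the set when the transcript named for it was typed protein-coding and its annotation gave an internal exon. An internal exon is neither the first nor the last of the transcript in the annotation. The named and the annotated transcript were the same in 149 of 1313 knockdown peaks (11.3%) and 131 of 1331 control peaks (9.84%). For the others, the type of the annotated transcript is not known here. The rule selected 1313 of 28891 peaks in the FTO knockdown list (4.54%, in 940 genes) and 1331 of 39492 peaks in the control list (3.37%, in 986 genes). It also selected 433 of the 8687 gene-named rows of the deposited comparison of knockdown and control, in 345 genes that held a selected peak in either list. These rows were not filtered by transcript type: 328 were typed protein-coding, 62 retained intron, 34 processed transcript and 9 another type. The annotation gave untranslated regions priority, so a peak that touched any annotated untranslated region is not in the set.

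In MeRIP-seq, poly(A) RNA is cut into short fragments and the fragments bound by an m6A antibody are sequenced (IP) beside fragments taken before enrichment (input). The knockdown group comprised 3 IP and 3 input libraries and the control group the same numbers. The genotype label of the knockdown group reads knockout, while the protocol describes a knockdown. The control genotype is labelled WT, and the control titles name neither a hairpin nor a vector. The knockdown titles number the libraries sh1, sh2 and sh3, and it is not said whether these are different hairpins. No label says whether the numbered libraries of a group came from separate cultures, so the spread between them may be technical.

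N6-methyladenosine (m6A) is placed on nascent messenger RNA by the METTL3-METTL14 methyltransferase within short sequence contexts, and FTO is an enzyme that removes it. In mammalian messenger RNA the mark is known to be dense in last exons around stop codons and in unusually long internal exons. Short internal exons are known to carry little of it, because exon junction complexes deposited near splice junctions shield the neighbouring RNA from the methyltransferase. An internal exon therefore sits between junctions on both sides, and whether a peak stays within 1 exon or runs across a junction is a basic feature of these peaks.

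Per-library values were at hand for input RNA alone, as FPKM of the 6396 genes of the comparison table. Those values summed to between 83712 and 86902 in the knockdown libraries and to between 74289 and 78461 in the control libraries, and sequencing depth was unknown. Each condition had 1 deposited peak list, so no peak value has a replicate and no difference between the lists could be tested. Binomial 95% intervals (exact Clopper-Pearson) given for shares of peaks cover counting error only. Of the epithelial markers, CLDN4 and MUC1 had FPKM values, summing to between 1.5 and 1.91 after knockdown and between 1.68 and 2.04 in control, and 4 of 8 markers held a peak of any kind in each list, with EPCAM and KRT18 at none. None of 6 gastric markers had an FPKM value, 2 of them held a peak in each list, and TFF1, TFF2, MUC5AC and GKN1 held none. FPKM values exist only for genes with a differential m6A row, so a missing value does not show that a gene was silent. The mesenchymal markers COL1A1 and THY1 summed to between 153 and 170 FPKM after knockdown and between 177 and 189 FPKM in control, and 3 of 7 mesenchymal markers held a peak after knockdown and 6 of 7 in control. Immune and endothelial markers had no FPKM value either. In each list 2 of 6 immune and 1 of 3 endothelial markers held a peak. The part of cell composition in the results was not tested. The gene named for a peak was the gene of the annotated exon in 1179 of the 1313 knockdown peaks (89.8%) and 1153 of the 1331 control peaks (86.6%), and the exon's own gene is given below where the names differ.

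FTO itself held 1 internal-exon peak in each list, in exon 4 of 10. It covered chr16:53825926-53844219 (GRCh38) after knockdown, with 2 exonic blocks, 631 exonic bases and an IP-over-input fold enrichment of 11.3. The control peak covered chr16:53814822-53844219, with 3 blocks, 720 bases and a fold enrichment of 4.22. FTO input RNA stood at 0.786, 0.830 and 0.765 FPKM in the knockdown libraries, against 5.48, 5.68 and 5.52 FPKM in the control libraries. All 3 knockdown libraries lay below all 3 control libraries, and limma with Benjamini-Hochberg adjustment gave a change of -1.87 in log2(FPKM + 1), with an SE of 0.0465 and an adjusted p = 4.99e-07. The authors' deposited table listed the m6A of this peak as 0.71 higher on the log2 scale after knockdown (adjusted p = 7.94e-23). Enrichment is a ratio to input, and the input of FTO differed this much between the groups; the part of that difference in the m6A value was not tested. HOXC8 and MDM2, the genes the study names beside FTO, held no internal-exon peak in either list.

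Internal-exon peaks stayed within 1 exon more often in the knockdown list than in the control list. A peak was called single-exon when it had 1 exonic block and junction-spanning when it had several. Junction-spanning peaks made up 489 of 1313 knockdown peaks, or 37.2% (95% interval 34.6 to 39.9), and 652 of 1331 control peaks, or 49.0% (46.3 to 51.7). Last-exon peaks, which have a junction on 1 side only, spanned a junction in 3.44% of knockdown and 6.08% of control cases. First-exon peaks of protein-coding transcripts, also with a junction on 1 side only, did so in 33.9% of knockdown and 46.8% of control cases. For 5' UTR peaks the share was 36.4% after knockdown and 43.7% in control. A share near that of internal exons was thus not particular to them. The share was 21.8% after knockdown and 27.1% in control for 3' UTR peaks, and 25.3% and 30.6% in the same order over all peaks of the lists. The knockdown share was thus below the control share in each of these sets. The peak of highest block count reached 6 blocks after knockdown and 7 in control.

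**Figure D1:**
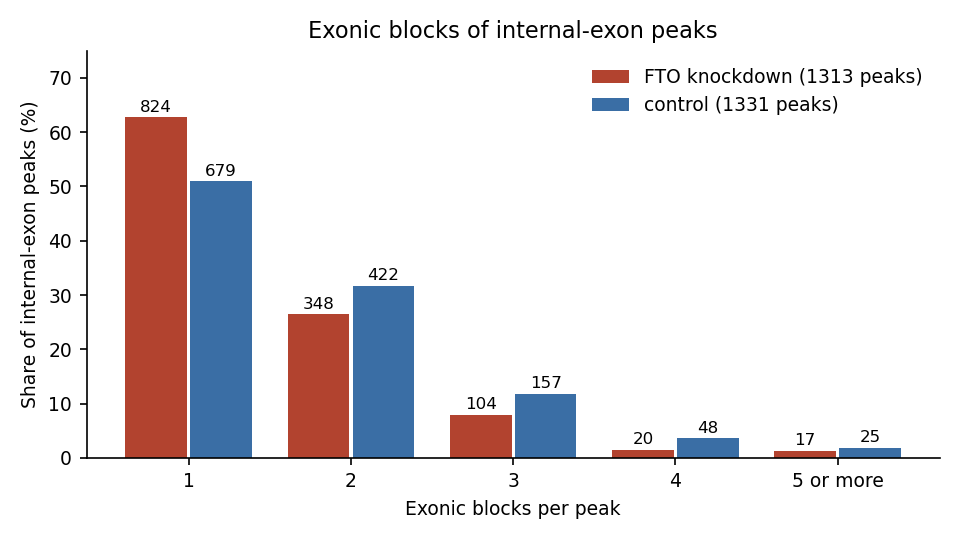
Share of internal-exon peaks (y axis, percent of the list's internal-exon peaks) by number of exonic blocks (x axis) in the FTO knockdown list (red, 1313 peaks) and the control list (blue, 1331 peaks), with the number of peaks above each bar. Knockdown has the taller bar at 1 block (824 peaks, against 679 in control) and the shorter bar at each higher block count.

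Junction-spanning peaks had 2 blocks in most cases, 348 of 489 after knockdown and 422 of 652 in control. The largest of 2 blocks always holds the larger part of the bases, so a high share is partly built into the measure. No baseline was computed for it. The largest block held a median of 79.0% of the exonic bases in knockdown peaks and 77.0% in control peaks, and the smallest block had a median of 37 bases after knockdown and 43 bases in control. Exons covered from end to end, as middle blocks, numbered 200 in knockdown peaks and 336 in control peaks. Their median length was 117 bases after knockdown and 138 bases in control. The introns skipped between blocks had a median length of 1672 bases in knockdown peaks and 1891 bases in control peaks.

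Peaks with the most blocks showed how far a peak could run. Among peaks at a deposited adjusted p of at most 1e-05, ALOX12B, an epidermal lipoxygenase, had 6 blocks in both lists, with a fold enrichment of 57.9 over 777 bases after knockdown and 16.1 over 747 bases in control. TNRC18, AGAP2 and the kinase MAP4K4 also had knockdown peaks of 6 blocks. In control, 7 blocks were reached by CENPF, a kinetochore protein, at a fold enrichment of 8.34 and by the kinesin motor KIF3A at 2.84. SETDB2, a histone methyltransferase, and SMC2, a condensin subunit, had 6 blocks in control.

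Longer peaks were more enriched in both lists. The median exonic length of internal-exon peaks was 300 bases after knockdown and 331 bases in control, against 359 and 421 bases in the same order for 3' UTR peaks. Peaks of under 200 bases had a median fold enrichment of 3.21 after knockdown and 2.18 in control. From 200 to 400 bases the medians were 5.50 after knockdown and 3.36 in control. From 400 to 800 bases they were 9.48 after knockdown and 7.08 in control. Peaks of 800 bases or more reached 15.7 after knockdown and 11.1 in control. The order of the length classes was the same in both lists, and the knockdown median was the higher in each class. Peak height and peak length come from the same caller and the same reads, so they are not independent measures.

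Within length classes the junction-spanning share was still lower after knockdown. It was 28.1% after knockdown (23.8 to 32.8) and 34.6% in control (29.9 to 39.5) below 200 bases, and 35.4% (31.0 to 40.1) and 50.9% (45.7 to 56.1) in the same order from 200 to 400 bases. From 400 to 800 bases it was 46.6% after knockdown (41.0 to 52.2) and 53.7% in control (48.3 to 59.0), and from 800 bases it was 47.6% (39.1 to 56.1) and 64.2% (57.4 to 70.6). The intervals did not overlap in the class of 200 to 400 bases and from 800 bases. Among 3' UTR peaks of 200 to 400 bases, the shares were 17.9% after knockdown (16.0 to 19.9) and 20.4% in control (18.5 to 22.5), with overlapping intervals. From 800 bases the 3' UTR shares were 36.0% after knockdown (32.7 to 39.3) and 43.8% in control (41.3 to 46.2), without overlap. Over all peaks of the lists the intervals did not overlap in either class, with 24.8% after knockdown and 28.8% in control from 200 to 400 bases and 41.4% after knockdown and 48.4% in control from 800 bases. The lower knockdown share was therefore not particular to internal exons.

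**Figure D2:**
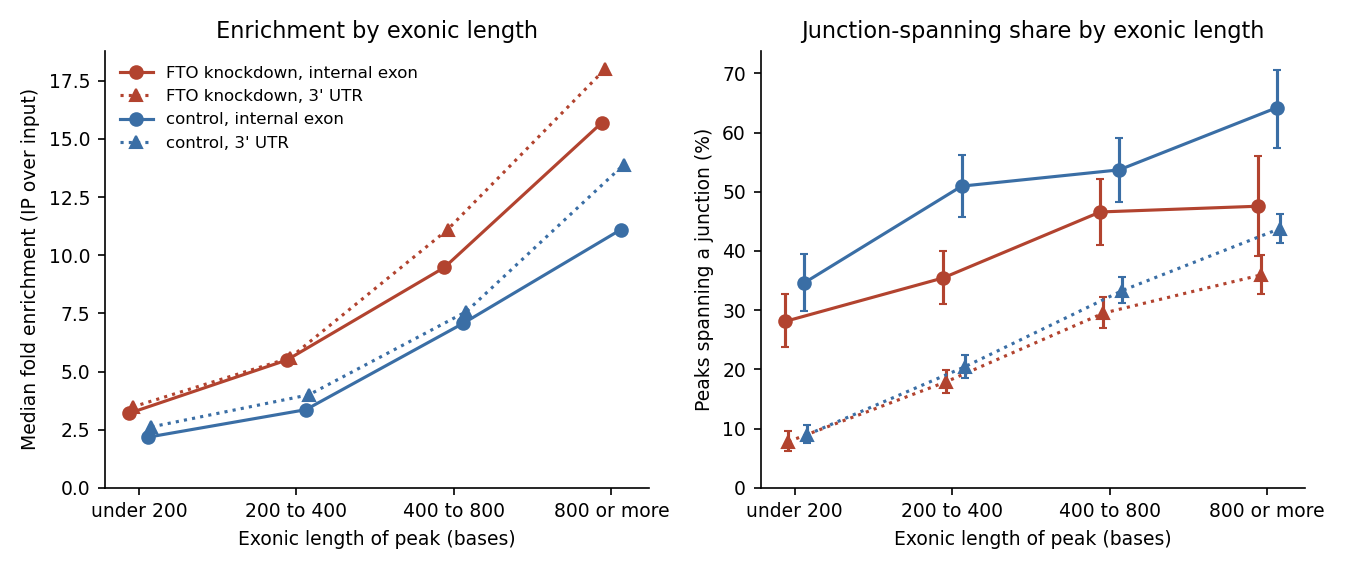
Left, median fold enrichment (IP over input) and right, junction-spanning share (percent, bars are exact 95% binomial intervals) by exonic length class (bases) for internal-exon (circles, solid) and 3' UTR (triangles, dotted) peaks in the FTO knockdown list (red) and the control list (blue). Enrichment climbs with length in every line, and the solid red shares lie below the solid blue shares in all 4 classes.

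Compared with other peaks of coding transcripts, internal-exon peaks had the lower enrichment. Their median fold enrichment was 6.24 after knockdown (quartiles 3.36 and 10.8) and 4.77 in control (2.40 and 8.63). Last-exon peaks had medians of 7.92 after knockdown and 6.11 in control, and 3' UTR peaks of 7.82 after knockdown and 6.20 in control. The median over all peaks was 7.05 after knockdown and 6.11 in control. Within the internal-exon set, single-exon peaks had medians of 6.08 after knockdown and 4.37 in control, while junction-spanning peaks had medians of 6.47 after knockdown and 5.26 in control. A deposited adjusted p of at most 1e-05 was reached by 85.5% of the knockdown peaks and 66.6% of the control peaks.

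At an adjusted p of at most 1e-05, the knockdown list was led by ZNF316, a zinc finger protein, with a fold enrichment of 156 over 1617 bases in 2 blocks (chr7:6644555-6653880). KCNH2, the potassium channel hERG, followed with 126 over 570 bases (chr7:150951211-150951780, exon 3 of 11), where the control peak spanned 2 blocks at a fold enrichment of 34.1. SKOR1, a transcriptional corepressor, had 118 after knockdown and 56.5 in control. PRR12 had 117 over 660 bases after knockdown and 61.9 over 1710 bases in control. The best overlap of that control peak was a second knockdown peak, of 1500 bases at 10.8. ARMCX4 had 109 after knockdown, against 19.9 in a longer control peak. In control the highest value, 202, belonged to a peak named for KTN1 whose exon is of the antisense gene KTN1-AS1, and strand-specific counting is not stated. RAG1, the recombinase of lymphocyte receptor genes, had 59.6 in control, against 12.5 in a shorter knockdown peak. FAM156A, which has a near-identical copy, had 51.9 in control.

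Single-exon peaks of at least 1000 bases marked a group of genes with very long internal exons. There were 42 of them in 41 genes after knockdown and 56 in 53 genes in control, with 18 genes in both lists. Their median fold enrichment was 17.3 after knockdown (quartiles 12.7 and 24.7) and 11.0 in control (7.49 and 14.8). Exon 2 held 14 of the 42 knockdown peaks and 12 of the 56 control peaks. MAP1A, a microtubule-associated protein, had the longest in both lists, all in exon 5 of 7. Its knockdown peak of 3479 bases (chr15:43521536-43525014) had a fold enrichment of 15.9 and was followed in the same exon by peaks of 1860, 450 and 991 bases. In control the exon held 1 peak of 3539 bases, at chr15:43525614-43529152 and a fold enrichment of 7.60.

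Several of the long single-exon peaks had nearly the same borders in both lists. URB2, a ribosome biogenesis factor, had 2426 bases at a fold enrichment of 14.8 after knockdown and 2546 bases at 9.73 in control, in exon 4 of 10. SON, a splicing cofactor of nuclear speckles, had 2186 bases in both lists, at 19.3 after knockdown and 14.2 in control. Others with long peaks were ANKRD50 (2066 bases) and the atypical cadherin FAT1 (1890 bases) after knockdown, and MIA3, which exports collagen from the endoplasmic reticulum (2697 bases), PRUNE2 (2638 bases) and FAT4 (2486 bases) in control. Among genes chosen after their values were seen, RAI1 had 1769 bases at 54.3 after knockdown and 1799 bases at 19.6 in control. LRFN1, a synaptic adhesion protein, had 1134 bases at 50.3 after knockdown and 1193 bases at 17.1 in control. The transcription factor SP8 was less enriched after knockdown, with 1080 bases at 37.5 after knockdown and 1350 bases at 43.1 in control.

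Peaks were spread over the exon order of the annotated transcripts, within limits set by the rule. In most peaks the annotated transcript was not the transcript named for the peak. The median exon number was 4 after knockdown and 5 in control. The median number of exons in the transcript, taken separately, was 12 after knockdown and 13 in control. Scaled from 0 at the first exon to 1 at the last, the median position was 0.42 after knockdown and 0.44 in control. With the scale cut into 5 equal parts, the first held 21.3% of knockdown peaks and 19.8% of control peaks. The part after it held 25.1% of knockdown and 25.6% of control peaks, and the last held 11.6% and 12.7%. The rule leaves out first and last exons and peaks touching untranslated regions, and transcripts with few exons cannot reach the end parts. The parts were therefore not equally open to peaks, and no baseline was computed. Exon 2 held 321 knockdown peaks (24.4%) and 294 control peaks (22.1%), with median fold enrichments of 7.07 after knockdown and 5.95 in control. The next-to-last exon held 214 knockdown peaks (16.3%) and 222 control peaks (16.7%), at 7.01 after knockdown and 6.09 in control. Exons in between had medians of 5.75 after knockdown and 4.26 in control. Exons 2 and next-to-last thus had the higher medians in each list.

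Most genes had a single internal-exon peak, 705 of 940 after knockdown and 777 of 986 in control, and 13 genes after knockdown and 15 in control had at least 5. CENPF had 8 after knockdown, with 4469 exonic bases in all, and 3 in control, with 6617 bases. Its highest knockdown peak, of 1228 bases in exon 13 of 20, had a fold enrichment of 25.8 (chr1:214644942-214646169), while the control peak over the same exon had 2095 bases in 2 blocks at 16.9. AKAP11, a scaffold of protein kinase A, had 6 knockdown peaks within exon 8 of 13, the longest of 840 bases, against 3 control peaks annotated to that exon, the longest of 1169 bases, and a control peak of 2 blocks and 750 bases that runs into it. PCLO, a presynaptic scaffold, had 7 in each list, of 61 to 481 bases after knockdown and of 181 to 2129 bases in control. TTN, the muscle protein titin, had 15 in control, 5 of which had at most 121 exonic bases, and 5 after knockdown. These genes show the same stretch divided into more and shorter peaks after knockdown (CENPF, AKAP11) as well as genes with fewer peaks (TTN).

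Nearly all internal-exon peaks of the shorter knockdown list overlapped a control peak. By at least 1 exonic base, 1175 of 1313 knockdown peaks (89.5%, 87.7 to 91.1) overlapped a peak of any kind in the control list, and 782 of 1331 control peaks (58.8%, 56.1 to 61.4) overlapped a knockdown peak. The shares over all peaks were 88.8% of knockdown and 57.9% of control peaks. Knockdown peaks without a partner were short, with a median of 121 bases and a fold enrichment of 2.88. Control peaks without a partner had medians of 181 bases and 3.52. The annotation of the partner differed between the directions. Of the overlapping knockdown peaks, 786 (66.9%) met an internal-exon peak of the control list, 150 a 3' UTR peak and 150 a 5' UTR peak. Of the overlapping control peaks, 703 (89.9%) met an internal-exon peak of the knockdown list, 14 a 3' UTR peak and 14 a 5' UTR peak. Of genes, 595 held an internal-exon peak in both lists, which is 63.3% of the knockdown genes and 60.3% of the control genes.

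The 692 pairs of internal-exon peaks that were each other's best overlap gave the closest comparison of the same sites. Enrichment was higher after knockdown in 439 of them (63.4%), with a median log2 ratio of knockdown over control of 0.19. Over all 21440 such pairs of any annotation 58.2% were higher after knockdown, with a median of 0.13, and among 3' UTR pairs 57.5%. The median exonic length was 359 bases after knockdown and 511 bases in control, and 488 pairs (70.5%) were longer in control. Both peaks were single-exon in 302 pairs and junction-spanning in 271. In 105 pairs the knockdown peak was single-exon and the control peak junction-spanning, and in 14 pairs the reverse. The same 2 counts were 394 and 72 among 3693 pairs in 3' UTRs.

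**Figure D3:**
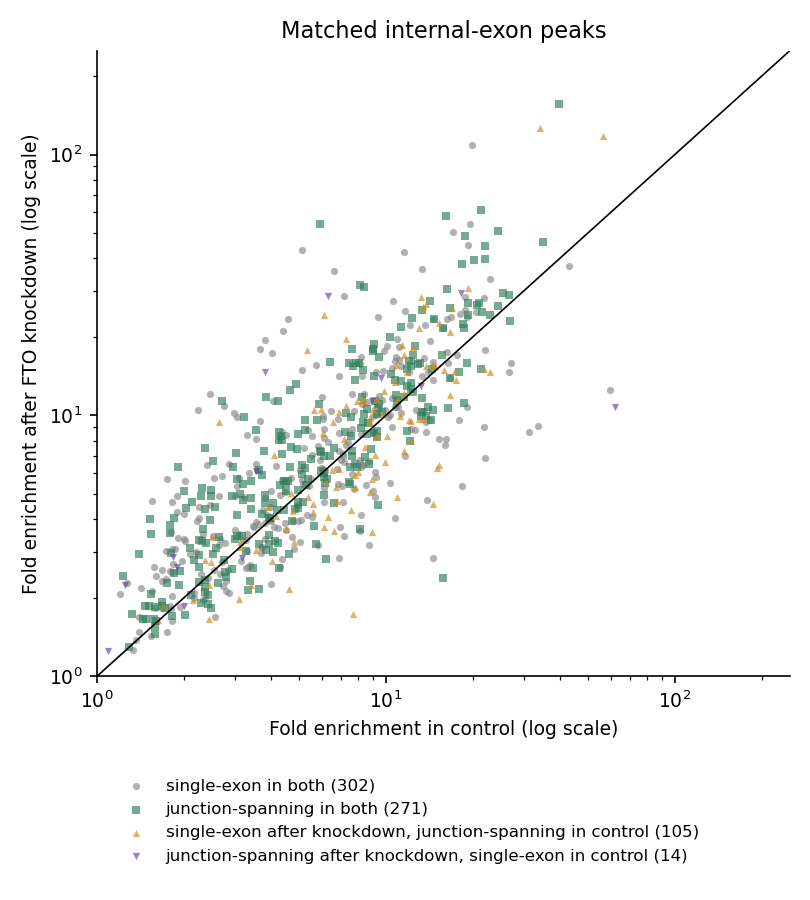
Fold enrichment after FTO knockdown (y axis, log scale) against fold enrichment in control (x axis, log scale) for 692 matched internal-exon peaks, marked by whether each peak was single-exon or junction-spanning; the line is equality. More points lie above the line (439) than below it, and pairs that are single-exon after knockdown and junction-spanning in control (105, triangles up) outnumber the reverse (14, triangles down).

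In the authors' deposited comparison, m6A of internal-exon peaks was more often higher than lower after knockdown. At a deposited adjusted p of at most 0.05, 391 of 433 rows were called (90.3%), where the share over all rows with a gene name was 88.2%. Of the called rows 244 were higher (56.4% of rows, against 50.5% of all rows) and 147 were lower (33.9%, against 37.8% of all rows). The table holds rows past a threshold, so the high shares of calls describe how it was made. The higher share of called rows was 62.4% (57.4 to 67.2) for internal exons, 57.3% (46.4 to 67.7) for last exons, 53.7% (51.2 to 56.2) for 3' UTRs, 71.2% (67.9 to 74.3) for 5' UTRs and 57.2% over all rows. The filters of these sets differed. Last-exon and UTR rows were limited to the protein-coding type, and internal-exon rows were limited to genes with a selected list peak, with 328 of 433 typed protein-coding. Rows of 1 gene come from the same transcripts and were counted separately here, and 4 pairs of rows, in 3 genes, overlapped each other. The median log2 change was 0.38 for internal-exon rows and 0.32 over all rows. Changes of at least 1 on the log2 scale numbered 67 higher and 24 lower.

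**Figure D4:**
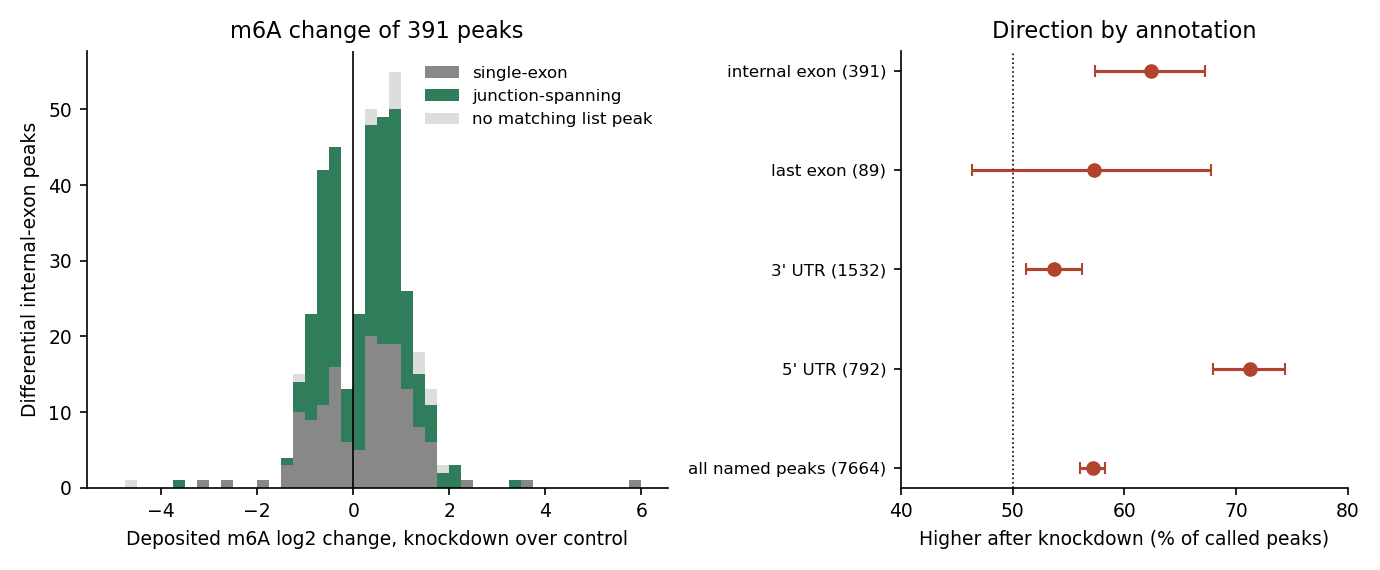
Left, number of called internal-exon rows (y axis) by deposited m6A log2 change, knockdown over control (x axis), stacked by whether the matching list peak was single-exon (grey), junction-spanning (green) or not found (light). Right, share of called rows higher after knockdown (percent, bars are exact 95% binomial intervals) by annotation, with the number of called rows. Internal exons stand at 62.4%, between 3' UTRs at 53.7% and 5' UTRs at 71.2%. Last-exon and UTR rows are limited to the protein-coding type, while internal-exon rows are not.

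Rows matched to single-exon and to junction-spanning peaks had similar shares of rises. Among 225 called rows matched to a junction-spanning peak 138 were higher (61.3%, 54.6 to 67.7), and among 151 matched to a single-exon peak 93 were higher (61.6%, 53.3 to 69.4). The remaining 15 called rows matched no list peak, those of SETD1A and SETD1B named below among them, and 13 were higher (86.7%, 59.5 to 98.3). By position, 38 of 53 called rows in exon 2 were higher (71.7%, 57.7 to 83.2), 183 of 302 in exons between (60.6%, 54.8 to 66.1) and 23 of 36 in next-to-last exons (63.9%, 46.2 to 79.2). These intervals overlap. The called rows lay in 311 genes, of which 59 had several and 13 had rows in both directions.

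Of the 10 largest m6A rises in genes with at least 1 FPKM, 6 had the exon of the gene they were named for. MAP3K11, a kinase upstream of JNK, rose by 2.31 on the log2 scale (adjusted p = 2.51e-32; chr11:65607236-65607692, exon 4 of 10), with a list peak of fold enrichment 7.28 after knockdown and none in control. ZSWIM4 rose by 2.20 and RABEP2, an endosomal trafficking protein, by 2.04, each with a list peak after knockdown and none in control. SETD1B, a histone methyltransferase, rose by 1.97 in exon 7 of 17. ZC3H18, a nuclear RNA decay factor, rose by 1.89, with list peaks of fold enrichment 9.81 after knockdown and 2.78 in control. SSC5D, a secreted scavenger receptor, rose by 1.66, with 5.70 after knockdown and 1.75 in control. In 4 further rows of this rank the annotated exon belongs to another gene than the one named. These were rows named for NSMF (3.64, exon of PNPLA7), ZNF484 (3.29, exon of a gene without a symbol), AP1G2 (1.67, exon of AP1G2-AS1) and PURA (1.65, exon of MALINC1).

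Among the largest falls in genes with at least 1 FPKM, the row of EIF3C, a translation initiation factor subunit, stood at -4.71 (adjusted p = 1.26e-22), but the gene has a near-identical copy, its value is uncertain and a second EIF3C row was at 0.50. MPHOSPH10, which acts in ribosomal RNA processing, fell by 1.83 (adjusted p = 0.00977), with a control list peak of fold enrichment 3.77 and none after knockdown. KTN1, the kinesin receptor kinectin, fell by 1.31 in exon 14 of 44. TEX15, a meiotic protein, fell by 1.27. MAML3, a Notch coactivator, fell by 1.11, the lysine methyltransferase SMYD2 by 1.08 and ASPM, a spindle pole protein, by 1.07. KTN1, TEX15, MAML3, SMYD2 and ASPM each had a control list peak of fold enrichment 2.53 to 8.40 and none after knockdown. Rows named for KCMF1 (-1.11, exon of a gene without a symbol) and STRA6 (-1.08, exon of CCDC33) were of the same rank. Beyond the 1 FPKM limit the extreme was DOK7, at 5.81 with a mean of 0.168 FPKM, a gene singled out after its value was seen.

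In some genes several internal-exon peaks moved together. The genes in this paragraph were chosen after their values were seen. They are those with at least 4 called rows, beside KMT2A and KMT2D, which are described with the chromatin regulators, and 2 collagen VI genes with 3. DST, a cytoskeletal linker, had 5 called rows, all lower, from -0.88 to -0.50. ZFHX4, a zinc finger homeobox protein, also had 5, all lower, from -0.84 to -0.23. MPRIP, a regulator of myosin phosphatase, had 4, all higher, from 0.82 to 1.44, and its row in exon 14 of 24 had list peaks of fold enrichment 10.2 after knockdown and 2.97 in control. In RAI1, 4 called rows lay in the same exon, 3 of 6, and 3 were higher while 1 was lower, at 0.80, 0.79, 0.32 and -0.31. COL6A3, a chain of collagen VI, had 3 called rows, all higher, at 1.07, 0.63 and 0.50. COL6A2, another chain of that collagen, had 2 higher, at 1.53 and 1.31, and 1 lower, at -0.37.

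Input RNA was called different in a slightly larger share of genes with a differential internal-exon row than of all tested genes, which include them. This difference in shares was not tested. Of the 345 genes, 299 had a mean of at least 1 FPKM and were tested with limma among 4515 genes, while 46 were below that limit. At a Benjamini-Hochberg adjusted p under 0.05, 207 of the 299 were called (69.2%, against 62.4% of all tested genes). Of these, 80 rose (26.8%, against 24.5%) and 127 fell (42.5%, against 37.9%). Quantile normalization gave 89 rises and 93 falls among the called genes, and median-centring gave 98 rises and 85 falls, so which direction was the more frequent changed with the scaling. Knockdown and control libraries were fully separated in 223 of the 299 genes (74.6%, against 67.8%). The median log2 change was -0.10 for the 299 genes and -0.07 over all tested genes.

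The genes of largest RNA change were picked among called genes whose knockdown and control libraries did not overlap. Their separation was thus a condition of the choice and is no result. KRT81, a hair keratin with near-identical relatives, had 3.74, 3.92 and 4.05 FPKM after knockdown, against 0.327, 0.195 and 0.445 FPKM in control (log2 change 1.89, SE 0.0765, limma adjusted p = 3.43e-06). PRKAR1B, a subunit that holds protein kinase A inactive, had 11.2, 11.4 and 11.1 FPKM after knockdown, against 3.61, 3.56 and 3.61 FPKM in control (1.41, SE 0.0388, limma adjusted p = 7.20e-07). Every knockdown library of these genes was above every control library, as the choice required. DHX37, an RNA helicase of ribosome assembly, rose to 10.9 ± 0.714 FPKM after knockdown, against 5.60 ± 0.574 FPKM in control (SD, n = 3 each; limma log2 change 0.86). MAP3K11 rose to 8.15 ± 0.442 FPKM, against 4.80 ± 0.579 FPKM in control (limma 0.66), and EZR, the membrane linker ezrin, to 32.6 ± 0.674 FPKM, against 21.1 ± 0.963 FPKM in control (limma 0.60). The deposited m6A values of these genes stood at 0.85 (adjusted p = 0.0933, not called) for KRT81, 0.69 for PRKAR1B, 0.96 for DHX37, 2.31 for MAP3K11 and -0.43 for EZR.

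Among falls, COL6A3 RNA had 3.54, 3.36 and 3.32 FPKM after knockdown, against 16.2, 15.6 and 15.8 FPKM in control (log2 change -1.94, SE 0.0415, limma adjusted p = 3.10e-07). Its m6A row in exon 36 of 43 matched a list peak of 601 exonic bases in both lists, with a fold enrichment of 30.0 after knockdown and 14.5 in control. Rows were matched to list peaks of any annotation, and these 2 peaks are not among the matched internal-exon pairs. HSPA13, a heat shock protein of the endoplasmic reticulum, had 4.74, 5.01 and 4.18 FPKM after knockdown, against 14.1, 13.8 and 11.1 FPKM in control (limma log2 change -1.30), with a peak of fold enrichment 26.9 after knockdown and 19.3 in control. The co-chaperone SGTB fell to 2.96 ± 0.247 FPKM, against 5.96 ± 0.983 FPKM in control (limma -0.81), and its m6A row was at -1.01. INAFM1 fell to 2.79 ± 0.580 FPKM, against 5.43 ± 0.822 FPKM in control (limma -0.77), while the exon of its m6A row belongs to CCDC9. In all of these genes the knockdown libraries were below the control libraries, as the choice required. As for FTO, the part of the input difference in the m6A values was not tested.

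**Figure D5:**
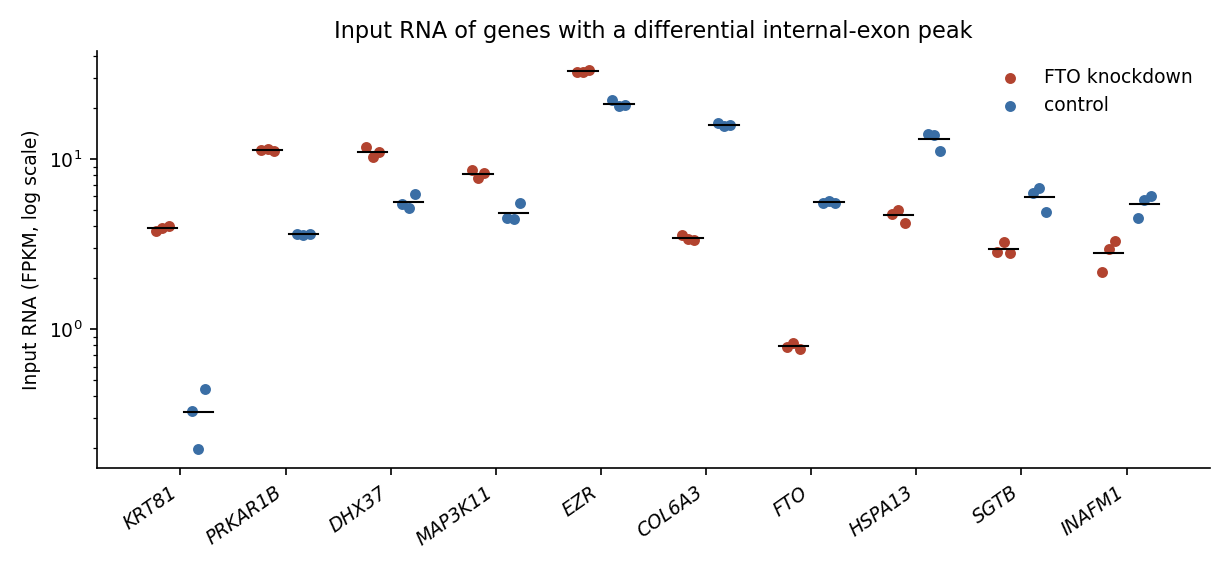
Input RNA (y axis, FPKM, log scale) of the 5 genes with the largest rises and the 5 with the largest falls among genes with a differential internal-exon row, with 1 point per input library and a line at the mean; red, FTO knockdown (n = 3); blue, control (n = 3). Genes were picked only where the groups do not overlap, so all 10 are separated. KRT81 is furthest apart among the rises and FTO among the falls.

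Chromatin regulators held the most internal-exon peaks of the gene lists followed here. Of 20 listed, 10 genes had 19 peaks after knockdown and 13 genes had 22 peaks in control. All 21 of their differential rows were called, where the share over all rows was 88.2%. Of these 10 were higher and 11 lower, beside 50.5% and 37.8% of all rows. The 4 KMT2A rows among the lower ones are 2 regions that the table lists 2 times each. SETD1A, a histone methyltransferase, rose by 1.47 in m6A (adjusted p = 1.00e-114; chr16:30966349-30969679). KMT2D, another of that family, had 3 rows higher and 1 lower, its row in exon 12 of 55 being at 0.87 with list peaks of fold enrichment 5.0 after knockdown and 3.11 in control. The 3 rows of KMT2C were lower, at -0.35, -0.55 and -0.59. SETD1A RNA rose to 21.8 ± 0.953 FPKM, against 16.0 ± 0.651 FPKM in control (SD, n = 3 each; limma log2 change 0.43, adjusted p = 0.000176). KMT2D RNA rose to 25.2 ± 1.57 FPKM, against 18.8 ± 0.0561 FPKM in control (limma 0.40, adjusted p = 0.000305). Of 15 list members tested for RNA, 8 rose and 2 fell, where 24.5% of all tested genes rose and 37.9% fell. Quantile normalization gave 9 rises and 1 fall, and median-centring 8 and 1.

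Mitotic and centrosomal genes had peaks in 5 of 20 members after knockdown (14 peaks, 8 of them in CENPF) and in 7 in control (17 peaks). Of their called rows 1 was higher (NUMA1, a spindle pole organiser, at 0.43) and 2 were lower (CEP350 at -0.97 and ASPM at -1.07). ASPM RNA had 3.16, 3.84 and 2.92 FPKM after knockdown, against 6.52, 6.65 and 4.05 FPKM in control (limma log2 change -0.63, adjusted p = 0.00957). The knockdown libraries all lay below the control libraries, among which replicate 3 was nearest to them. Of 10 tested for RNA, 5 rose and 3 fell, beside 24.5% and 37.9% of all tested genes. In the DNA repair list MDC1, a scaffold of the damage response, held all 3 called rows, 1 higher at 0.25 and 2 lower at -0.65 and -0.26. Of 10 repair genes tested for RNA, 1 rose and 8 fell, beside the same 24.5% and 37.9%, and quantile normalization gave 5 falls and median-centring 7.

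In the list of m6A writers, erasers and readers, internal-exon peaks were found in FTO and YTHDC1, the nuclear m6A reader, of 22 genes. YTHDC1 had list peaks of fold enrichment 6.27 over 180 bases and 16.3 over 600 bases after knockdown, and 15.0 over 300 bases in control. Its differential row, in exon 11 of 17, fell by 0.65 (adjusted p = 0.00224). YTHDC1 RNA was 4.22 ± 0.402 FPKM after knockdown and 4.10 ± 0.228 FPKM in control (limma adjusted p = 0.718), and the sign of this small difference turned when knockdown replicate 2 or control replicate 3 was left out. Of 12 members tested for RNA, 1 rose and 6 fell, FTO among them, beside 24.5% and 37.9% of all tested genes. Quantile normalization gave 1 rise and 4 falls, and median-centring 2 rises and 3 falls. Exon junction complex and nonsense-mediated decay genes, 20 in all, had peaks in SMG6 and SMG8 after knockdown and in UPF3B in control, with no differential row. Of 8 tested for RNA, 3 rose and none fell, beside the same 24.5% and 37.9%, and median-centring gave 6 rises.

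Of 25 ferroptosis genes, 2 had an internal-exon peak after knockdown and 1 in control. NCOA4, which delivers ferritin for degradation, had a row at 0.43 (adjusted p = 1.26e-35), with list peaks of 691 bases at a fold enrichment of 3.90 after knockdown and 751 bases at 3.56 in control. BAP1, a deubiquitinase, had a row at 0.93 (adjusted p = 1.58e-46), with a list peak of fold enrichment 4.42 after knockdown and no internal-exon peak in control. Both rows were higher after knockdown. Of 13 ferroptosis genes tested for RNA, 6 rose and 3 fell, beside 24.5% and 37.9% of all tested genes. In the p53 list of 15 genes, ZMAT3, an RNA-binding p53 target, had the only row, at 0.47 (adjusted p = 0.0234), with list peaks of 5.71 after knockdown and 3.04 in control. ZMAT3 RNA fell to 1.54 ± 0.0689 FPKM, against 2.72 ± 0.313 FPKM in control (SD, n = 3 each; limma log2 change -0.54, adjusted p = 0.00036), and of 8 list members tested for RNA 3 rose and 4 fell, beside the same shares of all tested genes.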

How the data were processed

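Positions, fold enrichment and block structure are the authors' own values. Per the file headers, the lists held the authors' IP-over-input ratio (fold enrichment) and log10 p-values, raw and adjusted, as scores. Per the file headers, the deposited comparison table held m6A log2 changes, scores that gave the adjusted p-value, and the authors' FPKM of every input library. Its m6A log2 values ran control over knockdown: over 282 internal-exon rows matched in both lists, 95.0% had the opposite sign to that of list enrichment in knockdown over control (rho -0.84), so they were turned. Per the submitters' processing notes, the tools were HISAT2 2.0, StringTie 1.3.0 and Bowtie 0.12.2 and the build the mouse build mm8, but positions and genes are human and are read as GRCh38. The peak caller is not given in the sources used here. File starts lie 1 base below gene starts, so 1 was added to each.

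Exonic length was the sum of block sizes. Overlaps were computed with bedtools 2.31.1 on exonic blocks. FPKM were taken as log2(FPKM + 1), which understates changes of low genes, filtered at a mean of 1 FPKM over 6 input libraries, and tested with limma 3.58.1 (trend, two-sided) in R 4.3.3, after a check on simulated data. No count test was run. The members, gene lists and tests were chosen with earlier results of these data known. Named genes were the 10 largest m6A rises and falls (1 FPKM or more), the 5 largest RNA rises and falls without overlap of the groups, the 5 peaks per list of highest enrichment, greatest single-exon length and most blocks, and up to 3 genes per list; others are named as chosen later, and some genes these rules would name are not reported here. Alternatives covered scaling, filters, the replicate block, left-out libraries, peak thresholds, overlap rules and the gene of the exon.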

Additional observations from a re-analysis of the deposited data

How the results depend on the processing

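The study's peak lists have no replicates, depth is unknown, and the FPKM table holds genes with a differential m6A peak, which limits every count above. At a mean of at least 5 FPKM, 132 genes with an internal-exon row were called in input RNA, against 207, and 18 of the named genes, against 32. Leaving out each library gave 168 to 226 called genes, and 27 to 35 among the named genes. The replicate numbers did not pair the libraries (correlations of -0.077, 0.028 and 0.025), and a replicate block gave 195 called genes and 30 named genes. Of 476 values of 38 named genes under the alternatives, 430 kept their direction and side of the threshold, 37 lost the call, 5 gained it and 4 turned round. Those 4 belonged to genes not called: MPHOSPH10 at 0.055 with quantile normalization, NCOA4 at 0.026 with median-centring, and YTHDC1 without knockdown replicate 2 (-0.024) or control replicate 3 (-0.0080), its range over left-out libraries being -0.024 to 0.088. The cause was not tested.

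For m6A, an adjusted p of at most 1e-05 left 135 rows higher and 52 lower, a log2 change of at least 1 left 67 and 24, and any internal-exon row with a gene name, an alternative added after seeing the data, gave 744 and 378. By the ratio of list enrichments 83 rows were lower and 183 higher.

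For overlap, a 50% reciprocal rule gave 47.1% of knockdown and 40.4% of control peaks, and internal-exon partners alone gave 60.3% and 53.3%. An adjusted p of at most 1e-05 in both lists gave 73.5% of control peaks, and a fold enrichment of at least 4 gave 84.9% of knockdown peaks. Median enrichment was 8.93 after knockdown and 8.13 in control at a fold enrichment of at least 4, and 7.24 and 5.34 for the highest peak per gene. Median exonic length was 331 and 480 bases at 1e-05, and 390 and 511 bases at a fold enrichment of at least 4. The junction-spanning share was 42.4% after knockdown and 55.7% in control for the highest peak per gene, 42.5% and 53.4% for internal exons of any transcript type (added after seeing the data), and 55.6% of control peaks at 1e-05. The knockdown share was below the control share, and the knockdown enrichment above the control one, under each of these alternatives.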
